A study of Homo sapiens with 3 samples.

Results

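The genes described here are 8 matrix metalloproteinase genes, MMP1, MMP2, MMP3, MMP7, MMP9, MMP10, MMP13 and MMP14, and 2 genes of their tissue inhibitors, TIMP1 and TIMP2. They were taken for their role in the invasion of carcinomas, and all 13 probe sets annotated to them were used. They are 10 of 11963 genes that the arrays read with at least 1 unshared probe set. Transcripts were measured by Affymetrix arrays in CAL 27, a line grown from a poorly differentiated squamous cell carcinoma of the tongue. All 3 cell populations carried an EGFP vector by stable transfection: pEGFPC1 without insert (vector), the EGFP vector with nm23-H1 (nm23-H1), or pEGFPC1 with nm23-H2 (nm23-H2). The nm23-H1 and vector cells are described as clones, and the described design does not cover the nm23-H2 cells. Each population gave 1 array, so there is no replicate, no p-value, and construct and clone cannot be told apart. Fewer cells with a transcript and less transcript per cell cannot be told apart either.

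Matrix metalloproteinases are zinc-dependent enzymes, most of them secreted as inactive proenzymes, that cut collagens, laminins, proteoglycans and other proteins of the extracellular matrix and cell surface. Collagenases such as MMP1 and MMP13 open fibrillar collagen, stromelysins such as MMP3 and MMP10 cut many other matrix proteins, gelatinases such as MMP2 and MMP9 cut denatured and basement membrane collagen, and MMP14 works at the cell membrane. TIMP proteins bind the active site and block it. In squamous carcinomas of the mouth these enzymes are made partly by the tumour cells and partly by the surrounding stroma, and Nm23-H1 is known as a product of a metastasis suppressor gene.

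The promoters show how the cluster genes MMP10 and MMP7 differ from the inhibitor TIMP1 in letters. RefSeq entries (GRCh38.p14) were held for 4 of the 10 genes, MMP7, MMP10, MMP14 and TIMP1. The 250 bases before the start site are printed for MMP10, which was far lower with nm23-H2, for its cluster neighbour MMP7, and for TIMP1, which was lower with nm23-H1. Capitals mark TGANTCA, where N is any base, and TATAAA on the gene's strand. Factors of the AP-1 family (FOS and JUN proteins) are known to bind TGAGTCA and TGACTCA.
MMP10, chr11:102780629-102780878, minus strand: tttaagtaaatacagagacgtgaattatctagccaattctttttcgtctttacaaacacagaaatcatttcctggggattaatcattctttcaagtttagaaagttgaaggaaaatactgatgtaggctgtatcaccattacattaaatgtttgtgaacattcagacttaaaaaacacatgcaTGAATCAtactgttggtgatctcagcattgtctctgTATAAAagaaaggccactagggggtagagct
MMP7, chr11:102530748-102530997, minus strand: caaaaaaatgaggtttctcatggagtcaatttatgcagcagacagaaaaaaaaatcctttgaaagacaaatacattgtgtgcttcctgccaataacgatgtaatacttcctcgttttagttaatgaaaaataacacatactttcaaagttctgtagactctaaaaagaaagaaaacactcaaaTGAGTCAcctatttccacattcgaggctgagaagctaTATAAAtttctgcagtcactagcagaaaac
TIMP1, chrX:47582186-47582435, plus strand: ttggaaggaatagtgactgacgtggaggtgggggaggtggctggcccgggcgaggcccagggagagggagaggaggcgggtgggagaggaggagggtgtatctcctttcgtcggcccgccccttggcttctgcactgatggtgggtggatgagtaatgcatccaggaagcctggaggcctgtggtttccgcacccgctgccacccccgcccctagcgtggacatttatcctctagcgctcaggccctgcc
MMP7 has TGAGTCA with its first base at -67, counted from the start site, and MMP10 has TGAATCA at the same distance. TATAAA begins at -30 in MMP7 and at -31 in MMP10. Neither motif occurs in these windows of TIMP1 and MMP14. Only exact matches were searched, and the TIMP1 window holds the near match TGAGTAA, so other AP-1 sites are not covered. Of 35116 promoter windows of the same length, 6.57% hold TGANTCA, 4.2% hold TGAGTCA or TGACTCA (reading the same on both strands), and 6.80% hold TATAAA on the gene's strand. GGAAG or its complement, a sequence bound by ETS factors, is in 65.1% of all windows, in MMP7, MMP14 and TIMP1, and not in the MMP10 window. The shorter GGAA was not searched, and it does occur in the MMP10 window. The G and C content was 34.4% for MMP10, 33.6% for MMP7, 56.8% for MMP14 and 64.8% for TIMP1, against a median of 58.0% over all windows.

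Levels are scaled signal units. A probe set counted as above the floor when its signal exceeded 28.3 units, the median of all scaled values, and lower signals were set to this floor before log2 differences were taken. Of the 10 genes, 9 passed the floor on some array and 6 on all 3, and MMP3 was below it on all 3. MMP13 passed on 1 array only. Because a gene could pass through the array where it is high, counts over the 9 genes describe them and support nothing.

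The collagenase gene MMP1 (probe set 204475_at) gave 521 units with vector, 731 with nm23-H1 and 79.6 with nm23-H2. The 3 arrays were thus spread widely, with nm23-H2 far below the other pair. Relative to vector, MMP1 was 6.54-fold lower in nm23-H2 cells (log2 difference -2.71) and 1.40-fold higher in nm23-H1 cells (0.49). Between nm23-H1 and nm23-H2 the gap was 9.18-fold (3.20). Among 6166 genes above the floor on both the vector and nm23-H2 arrays, 3 had a lower difference than MMP1. Among 6175 genes above it on both the nm23-H1 and nm23-H2 arrays, 1 had a higher difference.

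MMP13 (205959_at), the second collagenase gene, was high on the nm23-H1 array only. It gave 111 units there, against 11.6 with vector and 11.4 with nm23-H2, both below the floor. The level with nm23-H1 was at least 3.92-fold that of either other array (log2 1.97 as a bound). Vector and nm23-H2 could not be ordered for MMP13. The bound was under 2-fold (0.74) against both arrays with a floor at the 70th percentile.

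MMP10 (205680_at), stromelysin-2, gave 157 units with vector, 112 with nm23-H1 and 7.40 with nm23-H2, the last below the floor. The vector level was at least 5.53-fold that of nm23-H2 (-2.47 for nm23-H2), and nm23-H1 was at least 3.96-fold above nm23-H2 (1.98). With a floor at the 70th percentile the bound between nm23-H1 and nm23-H2 was 0.76. The nm23-H1 level was 1.40-fold below vector (-0.48). MMP1 and MMP10 were therefore both low with nm23-H2, while with nm23-H1 their differences had opposite signs, each under 2-fold. The related stromelysin gene MMP3 gave 14.4, 20.8 and 21.3 units with vector, nm23-H1 and nm23-H2, and no difference was taken.

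**Figure D1:**
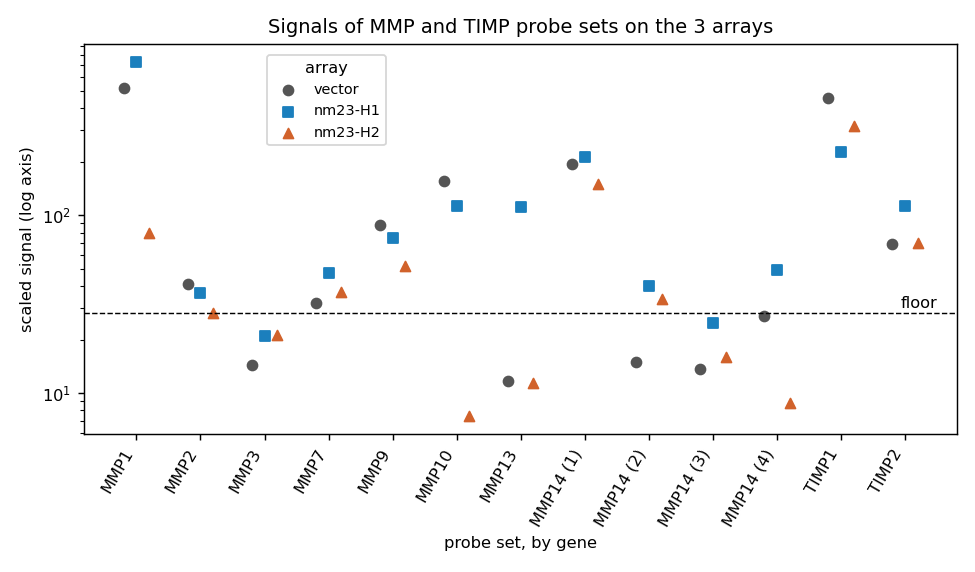
Scaled signal (log axis) of each of the 13 MMP and TIMP probe sets on the vector, nm23-H1 and nm23-H2 arrays, with 1 point per array and the floor of 28.3 units as a dashed line. MMP1 and MMP10 are lowest with nm23-H2, MMP13 is above the floor with nm23-H1 only, and the 4 MMP14 probe sets (numbered in the order of the text) differ among themselves.

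MMP7, matrilysin, is the small MMP made mainly by epithelial cells. It gave 32.3 units with vector, 47.5 with nm23-H1 and 37.0 with nm23-H2. These values lay close to the floor, and the differences from vector were 0.55 and 0.19. The gelatinases were low as well. MMP2, gelatinase A, gave 41.0, 36.7 and 28.1 units in the same order, the last just below the floor. MMP9, gelatinase B, gave 87.9, 74.8 and 51.9 units, and its difference of -0.76 between nm23-H2 and vector was the largest among the members that stayed under 2-fold in that comparison. Both gelatinase genes had their order vector, nm23-H1, nm23-H2 from high to low. The step from vector to nm23-H1 was small (-0.16 for MMP2 and -0.23 for MMP9), below the probe set error given further on.

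The membrane enzyme MMP14, which activates proMMP2 together with TIMP2, was read by 4 probe sets that did not give the same order. The brightest, 160020_at, gave 195 units with vector, 212 with nm23-H1 and 149 with nm23-H2, so that both differences from vector were small (0.12 and -0.38). Probe set 202827_s_at was below the floor with vector and gave 40.2 units with nm23-H1 and 33.8 with nm23-H2. Probe set 202828_s_at was below it on all 3 arrays. The last, 217279_x_at, was above the floor with nm23-H1 only (49.0 units). For 202827_s_at the differences from vector were bounds of 0.50 and 0.26, and for 217279_x_at the nm23-H1 difference was a bound of 0.79, so neither limits how much higher these readings were. With the mean of all 4, MMP14 differed by 0.35 and -0.03.

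The inhibitor genes went different ways with nm23-H1. TIMP1 (201666_at) gave 457 units with vector, 228 with nm23-H1 and 320 with nm23-H2, so both nm23 arrays lay below vector. The nm23-H1 level was 2.0-fold lower (-1.003), just past the threshold, and 93 of 6533 genes above the floor on both arrays had a lower difference. Other scalings placed it at -0.89 to -0.99, under 2-fold. The nm23-H2 level was 1.43-fold lower (-0.52), or -0.19 with the values as deposited. TIMP2 (203167_at) gave 68.6 units with vector, 113 with nm23-H1 and 69.6 with nm23-H2. It was 1.65-fold higher with nm23-H1 (0.72), of the members under 2-fold in that comparison the nearest to it, and by 0.70 above nm23-H2. Its nm23-H2 level differed from vector by 0.02, or by -0.07 with a common median.

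The only error that these arrays allow comes from genes read by 2 probe sets, whose differences disagree, and it covers neither cultures nor clones nor hybridisations. As an SD on the log2 scale it was 0.325 between the nm23-H1 and vector arrays, 0.353 between nm23-H2 and vector, and 0.387 between the nm23 arrays. It was larger where the dimmer probe set was under 100 units (0.367, 0.399 and 0.443) than where it was 100 or more (0.251, 0.285 and 0.302). The MMP1 difference with nm23-H2 was 7.68 times this error and that of TIMP1 with nm23-H1 was 3.09 times. For TIMP2 with nm23-H1 the multiple was 2.22, for MMP9 with nm23-H2 2.15, and for MMP1 with nm23-H1 1.5. All multiples use the error without the split by signal. TIMP2 and MMP9 had signals mostly under 100 units, and with the larger error of dim probe sets their multiples would be smaller. The differences of MMP2, MMP7 and MMP14 were at most 1.71 times the error in each comparison. Except for MMP14, each member had 1 probe set, so no second reading exists for them.

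**Figure D2:**
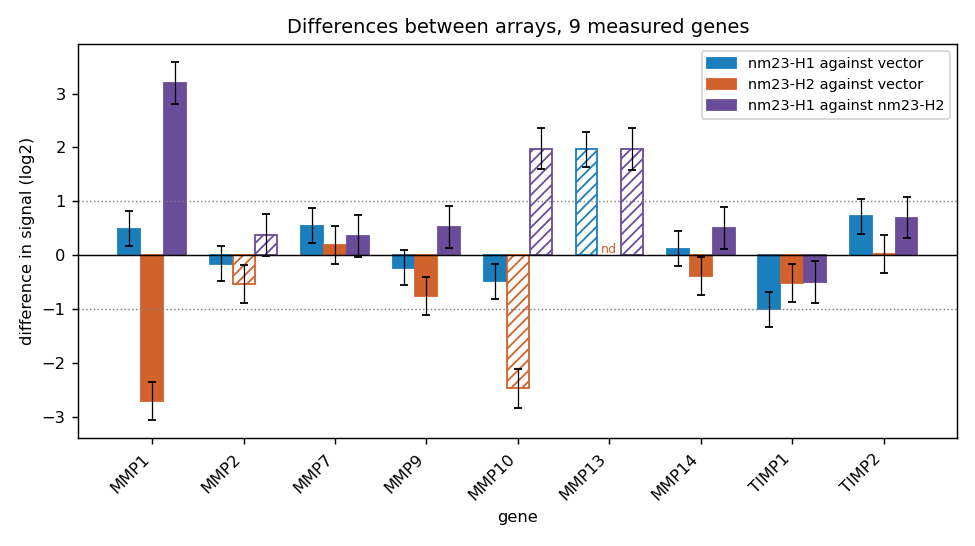
Log2 difference in scaled signal for the 9 measured genes in the 3 comparisons between arrays. Error bars are ± 1 SD of probe set disagreement, not replicate error; hatched bars are bounds, with 1 of the arrays set to the floor, nd marks a pair of arrays both at the floor, and dotted lines mark 2-fold. Of the differences with both arrays above the floor, that of MMP1 between nm23-H1 and nm23-H2 is furthest from 0 (3.20). Bounds cannot be ranked against it: with a floor at the 25th percentile MMP10 gave 3.77 in that comparison.

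Counts over the 9 measured genes were read against all 8000 measured genes. With nm23-H1, MMP13 was the 1 gene at least 2-fold higher than vector (2.16% of all genes were), and TIMP1 the 1 gene at least 2-fold lower (1.71% of all genes). With nm23-H2, 0 of the 9 were at least 2-fold higher than vector (3.54% of all genes) and 2 were lower, MMP1 and MMP10 (3.62% of all genes). MMP1, MMP10 and MMP13 were the 3 genes at least 2-fold higher with nm23-H1 than with nm23-H2 (3.74% of all genes), and 0 were lower (3.74% of all genes). These comparisons share arrays and are not independent. The median difference of the 9 genes from vector was 0.12 in nm23-H1 cells and -0.52 in nm23-H2 cells, and between the nm23 arrays it was 0.53. The medians over all measured genes were 0.00, -0.06 and 0.08. With the values as deposited the medians of the 9 genes were 0.23, -0.19 and 0.31, and with the mean of all probe sets the first was 0.35. Of the 9, 8 were higher with nm23-H1 than with nm23-H2, and TIMP1 was the exception (-0.49). The share of all genes with this direction was not counted. Here the differences of MMP2, MMP7, MMP9 and MMP14 were at most 1.36 times the probe set error, and those of MMP2, MMP10 and MMP13 were bounds.

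**Figure D3:**
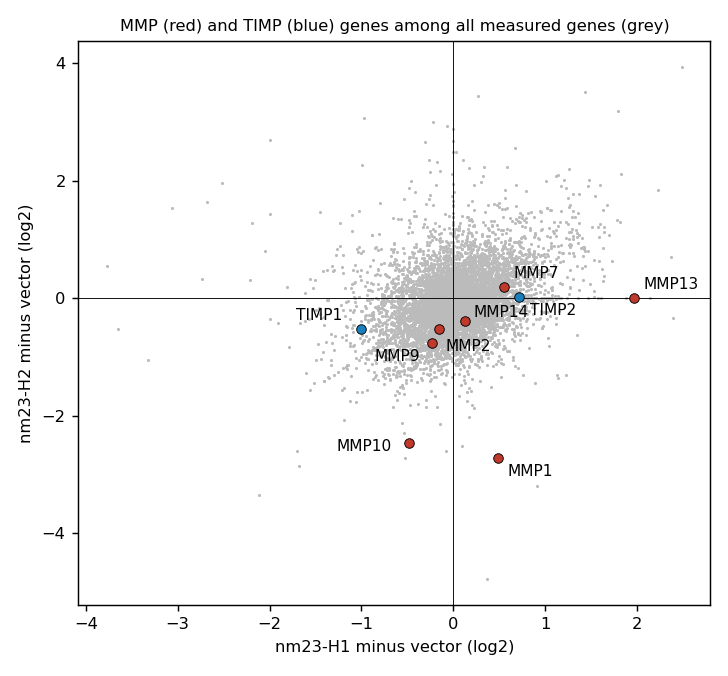
Log2 difference of nm23-H1 from vector (x axis) against that of nm23-H2 from vector (y axis) for the 8000 measured genes (grey), with the measured MMP genes in red and TIMP genes in blue. Both axes share the vector array, and MMP13 stands at 0 on the y axis because both arrays were at the floor; MMP1 and MMP10 lie at the bottom, at -2.71 and -2.47, and MMP13 at the right, at 1.97.

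Enzyme and inhibitor transcripts differed unequally from vector. The MMP1 signal relative to that of TIMP1 was 2.81-fold that of vector with nm23-H1 (log2 1.49) and 4.58-fold below it with nm23-H2 (-2.19), which left a 12.9-fold gap between the nm23 arrays (3.69). MMP10 relative to TIMP1 differed from vector by 0.52 with nm23-H1 and by -1.95, as a bound, with nm23-H2. MMP14, by its brightest probe set, relative to TIMP2 was lower with both, by 1.51-fold (-0.60) and 1.32-fold (-0.40). MMP13 relative to TIMP1 was at least 7.84-fold that of vector with nm23-H1 (2.97). For TIMP2 relative to TIMP1 the nm23-H1 ratio was 3.30-fold that of vector (1.72) and the nm23-H2 ratio 1.45-fold (0.54). Ratios with every signal above the floor do not depend on the scaling factors. The MMP10 and MMP13 bounds do, because the floor stands in for a signal. None of these ratios says anything about protein or enzyme activity.

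Of the 10 genes, 5 lie in the cluster of 9 MMP genes on chromosome 11, in the order MMP7, MMP20, MMP27, MMP8, MMP10, MMP1, MMP3, MMP12 and MMP13 in GRCh38.p14. Neighbours within it did not all differ from vector alike. MMP10 and MMP1 lie next to each other and were both far lower with nm23-H2, whereas MMP7 (0.19) and MMP27 (-0.16) were within 2-fold of vector. With nm23-H1, MMP13 was higher while its neighbours MMP12 and MMP3 were below the floor on all arrays. The 10 nearest measured genes on each side of the cluster, from ANKRD49 to NPAT, had medians of 0.01 with nm23-H1 and -0.03 with nm23-H2. Of these 20 genes, 0 were at least 2-fold different with nm23-H1 and 1, SLN, was with nm23-H2 (-1.02). Over all measured genes 3.62% were at least 2-fold lower with nm23-H2. For TIMP1 on chromosome X the 20 nearest genes had a median of -0.00 with nm23-H1, with 0 at least 2-fold different. The 20 genes nearest MMP14 on chromosome 14 had medians of -0.26 and -0.31, below those of all genes, and SLC7A8 (-1.20 with nm23-H1) and DAD1 (-1.79 with nm23-H2) were the lowest.

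**Figure D4:**
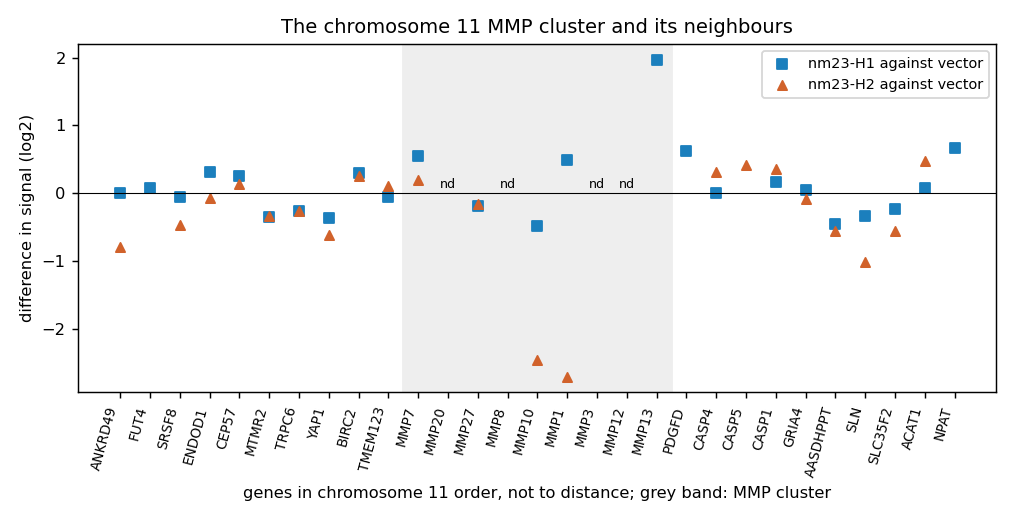
Log2 differences from vector of the MMP cluster of chromosome 11 (grey band) and the 10 nearest measured genes on each side, placed by gene order and not by distance, for nm23-H1 (squares) and nm23-H2 (triangles). A missing symbol or nd means that the arrays were at the floor; MMP10 and MMP1 stand apart at -2.47 and -2.71 with nm23-H2 and MMP13 at 1.97 with nm23-H1, while the neighbours lie between -1.02 and 0.67.

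Of 15 further MMP genes 13 had an unshared probe set and 7 passed the floor on some array. MMP28, epilysin, an MMP of keratinocytes, was the 1 that differed by 2-fold from vector, higher with nm23-H2 as were 3.54% of all measured genes. It gave 84.3 units with nm23-H2, against 19.8 with vector and 27.3 with nm23-H1 below the floor, or at least 2.98-fold higher (1.57). MMP26, matrilysin-2, gave 52.8 units with nm23-H1 and was below the floor on the other arrays (a bound of 0.90). MMP25, a membrane-anchored MMP, differed from vector by 0.37 and 0.55, its second probe set by 0.23 and -0.32 (0.01 with the values as deposited). MMP11, MMP16, MMP19 and MMP27 differed by -0.31 to -0.03. With the values as deposited the nm23-H2 differences of MMP16, MMP19 and MMP27 turned to 0.02, 0.15 and 0.17.

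TIMP3, the inhibitor that binds to the matrix, was the 1 gene measured of 5 other inhibitor genes. Its brightest probe set gave 83.2 units with vector, 43.5 with nm23-H1 and 101 with nm23-H2, differences of -0.94 and 0.28. The other 3 probe sets gave 1.01, at least 2.48 and at least 0.73 with nm23-H2, all in the same direction but of different size. With nm23-H1, 1 of them gave a bound of -0.58, and the other 2 were below the floor on both arrays. Every TIMP3 probe set was thus highest with nm23-H2, and TIMP1 was highest with vector. TIMP4 was below the floor on all arrays, and so was the probe set taken for RECK, a membrane inhibitor of MMPs. A further RECK probe set ending in _x_at gave 135, 143 and 94.9 units.

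Genes that act on proMMPs and their partners were compared next. Of 10 measured genes for activating proteases and their receptors, PLAU, urokinase, was the 1 at least 2-fold different from vector. It was 2.29-fold lower with nm23-H1 (-1.20), where 1.71% of all measured genes were at least 2-fold lower. With nm23-H2 it was 0.74 higher, and its second probe set gave -1.37 and 0.64. PLAT, tissue plasminogen activator, differed by -0.54 and 0.54, TMPRSS4, a membrane serine protease, by -0.65 and -0.56, and FURIN, a proprotein convertase that activates MMP14, by -0.21 and -0.75. Of 10 measured binding partners, 2 were at least 2-fold higher with nm23-H2 and 0 with nm23-H1. Over all measured genes these shares were 3.54% and 2.16%. These were LCN2, which forms a complex with MMP9 (8.33-fold, 3.06), and the tetraspanin CD151 (2.47-fold, 1.30). BSG, known as the MMP inducer EMMPRIN, was at -0.24 and -0.71, and the integrin chain ITGB1 at 0.24 and 0.68. Among 14 measured ADAM and ADAMTS genes, relatives of the MMPs, ADAM8 was the 1 that reached 2-fold, higher with nm23-H2 as were 3.54% of all measured genes. ADAM8 gave 59.2 units with nm23-H2 and signals below the floor elsewhere (at least 2.09-fold). Its second probe set was below the floor on all arrays. ADAM15 (-0.78) and ADAMTS9 (-0.72) were lower with nm23-H2 by less than 2-fold. ADAM20 was below the floor there and at least 1.61-fold lower.

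Of 18 measured genes for factors known to act on MMP promoters, 4 were at least 2-fold higher with nm23-H2 and 0 lower. Over all measured genes these shares were 3.54% and 3.62%. The median of the 18 was 0.17, with 10 above 0 and 6 below. The 4 higher were FOSL1, an AP-1 subunit (2.26), ATF3 (1.92), CEBPB (1.59) and the ETS factor ETS2 (1.08), and another ETS factor, ETV4, was at -0.02. With nm23-H1 the differences of FOSL1, ATF3, CEBPB and ETS2 were -0.99, -0.19, 0.16 and -0.88. ETV4 was the 1 factor at least 2-fold lower with nm23-H1 (a bound of -1.37), as were 1.71% of all measured genes. Of 7 measured genes for extracellular inducers of MMPs, 4 were at least 2-fold higher with nm23-H2 (3.54% of all measured genes). These were HBEGF (2.69), IL1A (2.35), IL1B (2.12) and TGFA (1.05, or -0.98 as a bound by another probe set). Second probe sets gave 3.10 for HBEGF and 2.09 for IL1B. The median of these 7 was 1.05 with nm23-H2 and -0.21 with nm23-H1. With nm23-H1, HBEGF was at least 3.99-fold lower (a bound of -0.84 by its second probe set) and HGF higher (1.03, just past 2-fold). They were the 1 gene lower and the 1 gene higher by 2-fold, against 1.71% and 2.16% of all measured genes. What links these factors and inducers to the MMP signals was not tested.

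Substrates of the enzymes differed in both directions. Of 13 measured matrix genes, SPARC, a matricellular glycoprotein, was lower with nm23-H1 (-1.71) and nm23-H2 (-2.60). Its signal with nm23-H2 (28.5 units) lay just above the floor, and its other probe set was below the floor on all arrays. LAMB3, a chain of the epithelial laminin that MMPs can cut, was 3.08-fold higher with nm23-H2 (1.62) and 1.41-fold with nm23-H1 (0.49). COL7A1, the collagen of anchoring fibrils, differed by -0.22 and 0.80 (a bound of 1.63 with nm23-H2 by another probe set), and COL4A6, a basement membrane collagen, by -0.40 and -0.76. The medians of the 13 were -0.22 with nm23-H1 and 0.16 with nm23-H2.

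For each member at least 2-fold different from vector, the nearest genes were found among 6974 genes above the floor on at least 2 arrays, by the Euclidean distance between the pairs of log2 differences from vector. The measure rests on 3 arrays and is a description. Nearest to MMP1 were STMN1 (distance 0.45), CYP1A1 (0.58) and KRT13 (0.64). Nearest to MMP10 were GPNMB (0.19), NUP62 (0.25) and CRIP1 (0.35), with MMP10 taken at its bound. NUP62 was itself below the floor with nm23-H2 (27.6 units). MMP13, also at its bound, had MKKS (0.44), AFF1 (0.44) and FAM168A (0.45), with AFF1 below the floor with vector (23.9 units). TIMP1 had RTRAF (0.01), GLB1L2 (0.03) and QKI (0.03).

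The labels and the cell type were checked on the same arrays. NME1, which encodes Nm23-H1, gave 1.57-fold the vector signal in the nm23-H1 cells and was 1.34-fold below vector in the nm23-H2 cells. With nm23-H1, 8.56% of all measured genes were at least 1.5-fold higher than vector, so the NME1 reading is a weak check. The probe set shared by NME2 and the read-through transcript gave 2.13-fold the vector signal in the nm23-H2 cells and 1.02-fold in the nm23-H1 cells. All 8 measured markers of squamous epithelium, KRT5 and KRT14 among them, were above the floor on all 3 arrays. Of the markers of cells that make MMPs in stroma, 2 of 10 for fibroblasts, 4 of 7 for leukocytes and macrophages and 1 of 5 for endothelium passed the floor on some array. Their summed signals with vector, nm23-H1 and nm23-H2 were 137, 172 and 158 for fibroblasts, 149, 197 and 127 for leukocytes and 54.7, 85.9 and 53.6 for endothelium. CD14 (50.1 units), AIF1 (39.5) and CSF1R (35.1) were above the floor with nm23-H1 only, as was MMP13, and their part in the MMP13 result was not tested. The further AIF1 probe sets were below the floor on all arrays. THY1 of fibroblasts (52.4, 59.2 and 50.6 units) and LCP1 of leukocytes (46.8, 48.8 and 52.6) were above the floor on all 3 arrays, and COL1A2 and PECAM1 on 2. PTPRC of leukocytes (3.21, 3.28 and 3.79 units), COL3A1 and DCN of fibroblasts and CDH5 of endothelium were among the markers below the floor on all 3.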

How the data were processed

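Each of the 3 deposited arrays holds an intensity on a linear scale for 22283 probe sets, computed by the authors with MAS5, per the submitters' processing notes. The version, the scaling target and detection calls are not given in the sources used here. Each array was multiplied (vector 1.11, nm23-H1 1.03, nm23-H2 0.881) to a common mean of the values between the 2nd and 98th percentiles. Signals under the pooled median of 28.3 were set to it and log2 was taken. Genes were named from the platform annotation, with symbols updated through RefSeq gene IDs; 1043 probe sets had several symbols and 2169 none, and these name no gene of the counts. Among the 19071 probe sets annotated to 1 symbol, each gene was represented by 1, those not ending in _x_at first and then the brightest by mean log2. Genes above the floor on at least 1 array (8000) were compared, and a difference of 1 on the log2 scale (2-fold) was counted. Where 1 array was under the floor, the fold is a lower limit, called a bound.

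With 1 array per group no test was possible, and the number of arrays limits the precision. The members, gene lists, comparisons and settings were chosen with earlier results of these data known. Named genes were the members, further MMP and TIMP genes measured, up to 4 per other list with the largest difference from vector, NME1 and NME2, and the 3 genes nearest to each member at least 2-fold different. The named neighbours on the chromosomes, HGF, ETS2 and the single markers were chosen after their values were seen. The alternatives are given in the closing section. The steps were tested on simulated data. Python 3.11.15, numpy 2.4.6, pandas 2.3.3 and matplotlib 3.10.9 were used.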

Additional observations from a re-analysis of the deposited data

How the results depend on the processing

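Of the 7 differences of at least 2-fold among the members, MMP1 stayed at least 2-fold in the same direction over 8 alternatives, from -2.80 to -2.38 between nm23-H2 and vector and from 2.97 to 3.30 between the nm23 arrays. MMP10 with nm23-H2 against vector ranged from -4.26 (floor at the 25th percentile) to -1.24 (floor at the 70th), and MMP13 with nm23-H1 against vector from 0.74 to 3.26, because the floor sets the size of a bound. With the floor at the 70th percentile, 0 members were at least 2-fold higher with nm23-H1 than with vector, and 1, MMP1, was higher with nm23-H1 than with nm23-H2. TIMP1 was the 1 gene lower with nm23-H1, by -1.003, just past the threshold. This count was 0 with the values as deposited (-0.89), with a common median of values above the floor (-0.99) and after quantile normalization (-0.98). It was also 0 when 16 was added to every value without a floor (-0.95). The cause of the lower TIMP1 signal was not tested. At 1.5-fold, 2 members (MMP13 and TIMP2) were higher with nm23-H1 than with vector. No difference of 2-fold turned its direction.

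Over all genes, those at least 2-fold higher and lower numbered 173 and 137 for nm23-H1 against vector, 283 and 290 between nm23-H2 and vector, and 299 and 299 between nm23-H1 and nm23-H2. With the values as deposited they were 212 and 92, 630 and 108, and 172 and 494, and the all-gene median of nm23-H2 against vector moved from -0.06 to 0.17 and that between the nm23 arrays from 0.08 to -0.07. With a common median they were 242 and 383 between nm23-H2 and vector and 405 and 252 between the nm23 arrays, and quantile normalization gave 233 and 333 for the latter. With the floor at the 25th percentile they were 653 and 552, 621 and 979, and 1087 and 634, with the floor at the 70th 72 and 59, 192 and 112, and 113 and 192, and at 1.5-fold 685 and 602, 842 and 1142, and 1296 and 843. Fewer genes were tested with probe sets specific by name (109 and 76, 163 and 168, 178 and 169), and MMP9 has no such probe set. No paired analysis was possible because each group has 1 array.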
